A study of Mus musculus with 24 samples.

Results

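Transcripts that mark macrophages and monocytes were followed in the hearts of mice given doxorubicin, hesperitin or both. A list of 37 gene symbols was matched to the gene names of the 2 deposited tables. In all, 29 were present among the 10709 genes of the tables, 29 in the table of 16 h and 23 in that of 72 h. They fall into 4 classes by what is known of them: 10 resident-type genes, typical of macrophages that live in the heart, 5 recruited-type genes, typical of monocytes and of macrophages that have just come from blood, 7 genes shared by macrophages in general, and 7 shared by leukocytes. Of the listed genes, 8 had no row in either table (Ccr2, Lgals3, Trem2, Gpnmb, Cx3cr1, Fcgr1, Ms4a7 and Aif1) and were not analysed here. Another 6 had a row at 16 h alone (Folr2, Cd14, C5ar1, Adgre1, Itgb2 and Spi1). The recruited-type class therefore lacks its best known marker, Ccr2, and holds Itgam, Cd14, C5ar1, Ccl6 and Ccl9 at 16 h and Itgam, Ccl6 and Ccl9 at 72 h.

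All samples are whole hearts of mice labelled WT, sequenced as poly(A) mRNA with single-end reads. At 16 h there were 4 groups: V received vehicle, DOX received 25 mg/kg of doxorubicin, H received a daily 10 mg/kg of hesperitin, and DOXH received the pair of agents. At 72 h V and DOX were used. Each group has 3 libraries, 18 in all. Doxorubicin is a DNA-damaging cancer drug that can harm the heart, and hesperitin (usually spelled hesperetin) is a plant flavonoid. Strain, sex, age, the route of dosing and the number of animals behind a library are not stated by the labels, so a p-value measures the spread between these libraries. Counts per library ran from 9255651 to 11074450 in V, DOX and DOXH at 16 h, from 17664060 to 19869050 in H, and from 16607805 to 20587578 at 72 h. The 10 cardiomyocyte markers were all present, at a summed 58455 to 65876 CPM in V at 16 h, so the tissue label and its defining transcripts match.

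Macrophages are the most common immune cells of a resting heart. Many descend from cells that seeded the organ before birth and renew themselves there; they clear dead cells and debris, and carry receptors such as the mannose receptor (Mrc1), LYVE-1 (Lyve1) and CD163 (Cd163). After injury, monocytes enter from blood, adhere through integrins such as CD11b (Itgam) and become macrophages in place. Most macrophages need signals through the receptor for colony-stimulating factor 1 (Csf1r) to survive. The transcription factor PU.1 (Spi1) and factors of the C/EBP family set up much of the myeloid programme.

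Promoter sequences are shown for 4 genes whose rise with doxorubicin at 16 h passed the test under every alternative run and whose RefSeq start lies at the annotated end of the gene: the neighbouring chemokine genes Ccl6 and Ccl9 on chromosome 11, Itgam and F13a1. Each is the 250 bases before the RefSeq start in GRCm38.p6, written 5′ to 3′ on the gene's strand, with capitals marking letters that match GAGGAA (the core bound by PU.1), TTNNGNAA (C/EBP) or TGANTCA (AP-1) on either strand. F13a1 has more than 1 RefSeq start, and the most upstream one is shown.
Ccl6, chr11:83593088-83593337, minus strand: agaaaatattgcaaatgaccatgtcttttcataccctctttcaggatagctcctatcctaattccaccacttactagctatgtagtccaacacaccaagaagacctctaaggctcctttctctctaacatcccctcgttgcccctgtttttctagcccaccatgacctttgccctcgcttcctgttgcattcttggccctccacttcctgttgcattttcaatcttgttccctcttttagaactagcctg
Ccl9, chr11:83578637-83578886, minus strand: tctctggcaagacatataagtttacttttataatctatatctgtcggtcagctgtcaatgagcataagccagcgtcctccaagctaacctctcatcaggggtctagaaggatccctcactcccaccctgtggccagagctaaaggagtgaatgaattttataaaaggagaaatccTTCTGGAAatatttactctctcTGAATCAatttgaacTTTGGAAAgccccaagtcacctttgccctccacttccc
Itgam, chr7:128062390-128062639, plus strand: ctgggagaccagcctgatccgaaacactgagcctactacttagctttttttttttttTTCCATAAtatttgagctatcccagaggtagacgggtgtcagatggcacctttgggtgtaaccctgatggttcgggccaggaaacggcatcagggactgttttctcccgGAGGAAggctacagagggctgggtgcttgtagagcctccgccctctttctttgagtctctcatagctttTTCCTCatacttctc
F13a1, chr13:37050245-37050494, minus strand: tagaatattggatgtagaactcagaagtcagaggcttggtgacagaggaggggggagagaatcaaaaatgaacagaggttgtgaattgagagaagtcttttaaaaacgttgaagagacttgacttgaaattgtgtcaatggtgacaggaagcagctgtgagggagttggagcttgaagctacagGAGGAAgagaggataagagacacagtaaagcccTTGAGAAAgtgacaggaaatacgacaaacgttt
In Itgam the PU.1 letters occur once on each strand (GAGGAA and TTCCTC), and F13a1 holds them once. The Ccl6 window holds none of the motifs and is therefore in lower case throughout, while Ccl9 holds a pair of C/EBP matches and 1 AP-1 match.

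RefSeq promoters were matched by symbol for 20 of the 29 genes, which gave 24 sequences. No sequence was matched for Adgre1, Cd14, Csf1r, Itgb2, Lyve1, Maf, Siglec1, Spi1 and Tyrobp. GAGGAA was in 12 of the 24 (50%), against 23.3% of all 32851 promoters of the same length. TTNNGNAA was also in 12 of 24 (50%), against 36.8%, and TGANTCA in 3 of 24 (12.5%), against 6.75%. The motif of NF-kB and that of the interferon response element were in 0 of 24, against 1.21% and 2.98%. These are counts of letters, not of bound sites.

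In vehicle hearts at 16 h the level per kilobase of the longest annotated transcript was highest for Lyz2, the macrophage and granulocyte lysozyme, at 78.1 CPM per kb. Tyrobp (13.7), Ccl6 (13.2), Pf4 (11.4) and F13a1 (10.7) followed on that scale, and Spi1 (1.58), Itgam (1.30) and Siglec1 (0.378) were lowest. In DOX hearts at 16 h Lyz2 was again first, at 86.9 CPM per kb, and Ccl6 was second at 47.0. All other levels below are CPM, counts scaled to a common library size with TMM factors within each table, and are compared between libraries of the same time only.

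**Figure D1:**
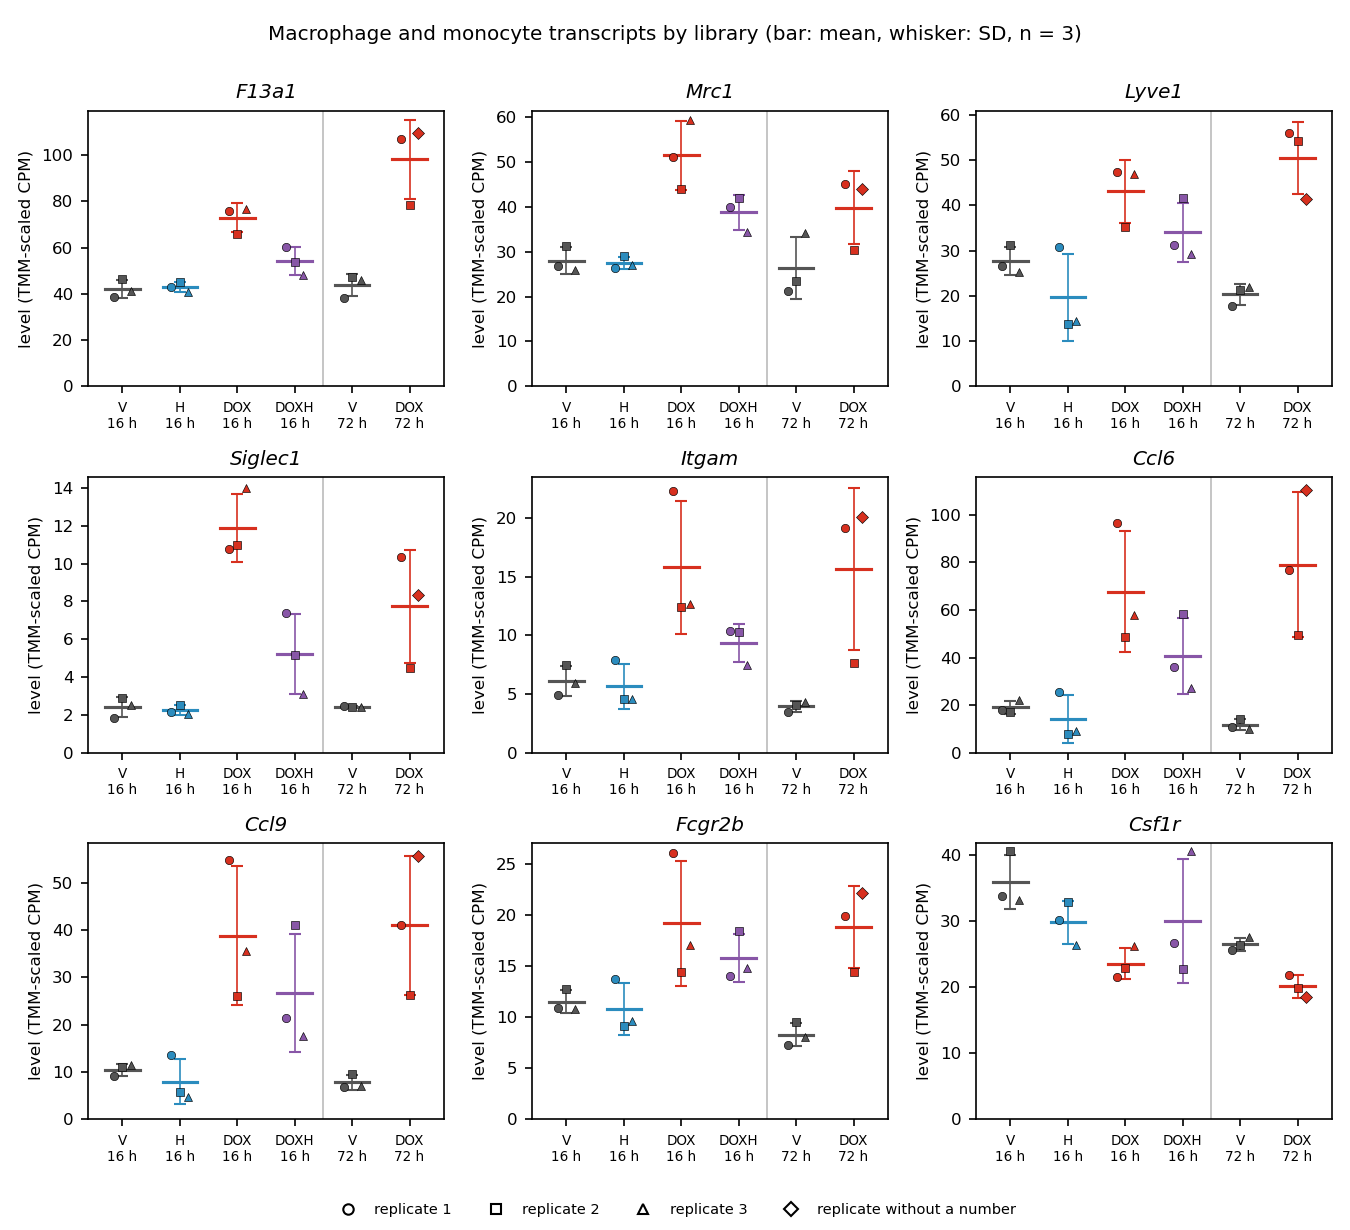
Level of 9 macrophage and monocyte transcripts in each library (TMM-scaled CPM, axes starting at 0) by group and time; points are libraries, with a symbol for the replicate number, and bars and whiskers are the mean and SD of 3 libraries. The DOX libraries lie above all V libraries of the same time for F13a1, Lyve1, Siglec1, Itgam, Ccl6, Ccl9 and Fcgr2b and below them for Csf1r, while Mrc1 overlaps at 72 h.

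The comparison of DOX with V asks how these transcripts stand after doxorubicin. At 16 h, 10 of the 29 rose and 1 fell in edgeR's quasi-likelihood test with Benjamini-Hochberg adjustment over all genes (adjusted p under 0.05), against 32.3% of all 10393 genes called, 15.6% higher and 16.6% lower. The median log2 fold change of the 29 was 0.56, against 0.02 for all genes. At 72 h, 15 of 23 rose and 2 fell, against 53.7% of 7703 genes called, 26.5% higher and 27.2% lower, and the median was 0.79, against 0.01. The lowest DOX library was above the highest V library in 17 genes at 16 h (28.4% of all genes) and in 15 at 72 h (31.3%). All DOX libraries were below all V libraries in 1 gene at 16 h (28% of all genes) and in 2 at 72 h (32.2%). The share called was near that of all genes at 16 h and above it at 72 h. In whole heart RNA, more cells of a type and more RNA per cell cannot be told apart.

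The count at 16 h moved with single libraries, as did the share of all genes called, which was 32.3% in the main fit. Without V replicate 1, 6 of the 11 calls passed, beside 18.6% of all genes. When V and DOX alone were fitted, 17 genes were called, beside 44% of all genes. The 6 that passed under every alternative run were Mrc1, F13a1, Siglec1, Itgam, Ccl6 and Ccl9. Transcripts of other cells moved too. All 10 cardiomyocyte markers fell at 16 h (median log2 fold change -0.69) and 9 of 10 at 72 h (median -1.09). Their summed level went from 58455 to 65876 CPM in V to 33760 to 36389 CPM in DOX at 16 h, and their part in the changes below was not tested.

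**Figure D2:**
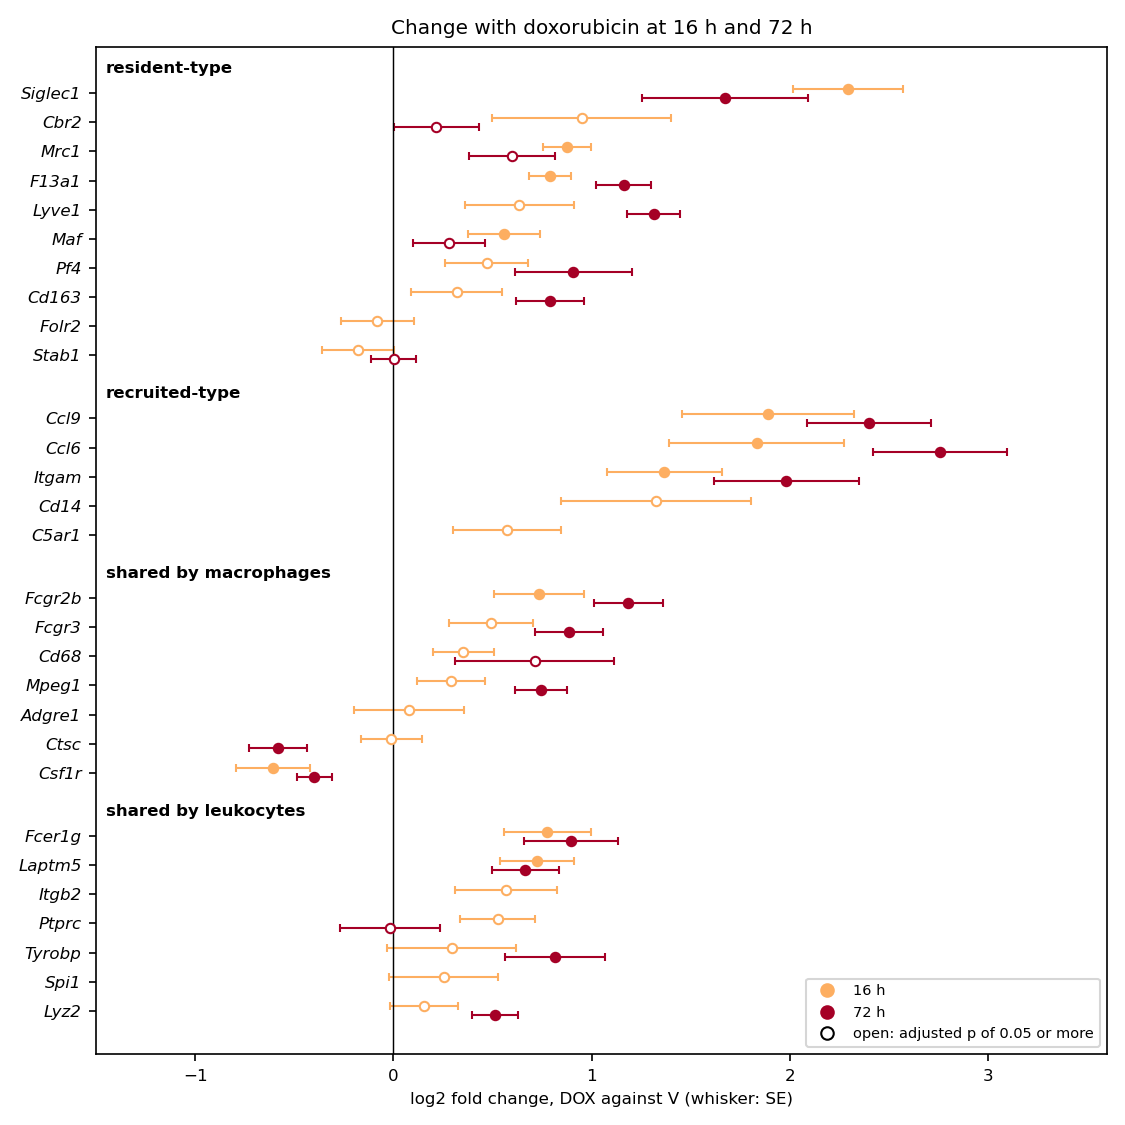
Log2 fold change of DOX against V for each gene at 16 h (orange) and 72 h (dark red), with its SE as whisker; filled points have an adjusted p under 0.05, and the vertical line marks no change. Most points lie right of the line, the 3 recruited-type genes measured at both times lie farthest right at 72 h, and Csf1r lies left of it at both times.

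The recruited-type transcripts had the higher median change. Ccl6 and Ccl9, on chromosome 11 (chr11:83587882-83593087 and chr11:83572919-83578636, GRCm38), encode CC chemokines made by myeloid cells. Ccl6 read 18.1, 16.95 and 21.99 CPM in V replicates 1, 2 and 3 at 16 h and 96.5, 48.6 and 58.1 CPM in DOX. The lowest DOX library was above the highest V library by more than the whole range of V. The change was 1.83 ± 0.44 on the log2 scale (SE, 3 libraries a group; edgeR adjusted p = 0.0118), a 3.56-fold rise. At 72 h Ccl6 read 10.7, 14.4 and 10.1 CPM in V and 76.8, 49.7 and 111 CPM in DOX replicates 1 and 2 and the DOX library without a number. Again no library overlapped, and the rise was 6.76-fold (2.76 ± 0.34; edgeR adjusted p = 0.00111), the largest among the 23 genes.

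Ccl9 behaved alike: it read 9.06, 11.0 and 11.4 CPM in V at 16 h and 55.0, 26.0 and 35.6 CPM in DOX. The rise was 3.70-fold (1.89 ± 0.43; edgeR adjusted p = 0.00936). By 72 h it read 6.71, 9.64 and 7.02 CPM in V and 41.2, 26.2 and 55.7 CPM in DOX, a 5.28-fold rise (2.40 ± 0.31; edgeR adjusted p = 0.00118). In both chemokine genes DOX replicate 2 was the lowest DOX library at each time, yet stood above all V libraries.

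Itgam (chr7:128062640-128118491), the alpha subunit of the adhesion and complement receptor Mac-1, read 4.92, 7.43 and 5.97 CPM in V at 16 h and 22.3, 12.4 and 12.7 CPM in DOX. The rise was 2.58-fold (1.37 ± 0.29; edgeR adjusted p = 0.00673). In the 72 h libraries it read 3.44, 4.09 and 4.34 CPM in V and 19.2, 7.67 and 20.1 CPM in DOX, a 3.95-fold rise (1.98 ± 0.36; edgeR adjusted p = 0.0028). The groups did not overlap at either time. In the annotation 72.4% of the 50-base words of the longest Itgam transcript also occur in Gm49368, a gene model on the same strand that was not among the rows analysed here, so some of its reads cannot be told apart from those of that model.

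The remaining recruited-type genes were measured at 16 h alone and missed the threshold. Cd14, a co-receptor for bacterial lipopolysaccharide, read 4.40 to 6.07 CPM in V and 10.1 to 19.5 CPM in DOX (log2 difference 1.32 ± 0.48; edgeR adjusted p = 0.0544). C5ar1, the receptor for the complement fragment C5a, read 5.50 to 6.81 CPM in V and 8.84 to 9.82 CPM in DOX (0.57 ± 0.27; edgeR adjusted p = 0.119). In both, no DOX library overlapped a V library. Cd14 passed with DESeq2 (adjusted p = 0.0172), without H replicate 1, DOXH replicate 2 or DOXH replicate 3 (0.0213 to 0.036), and with V and DOX alone in the fit (0.00878). C5ar1 passed without H replicate 1 (adjusted p = 0.0164) and with V and DOX alone (0.00847).

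Neutrophils also express Itgam, Cd14, C5ar1 and Ccl6, and their markers moved with this class. All 8 neutrophil markers measured at 16 h were higher in DOX than in V without overlap, as were 28.4% of all genes. Their median log2 difference was 2.26, but 1 of them, Mmp9, passed the test (edgeR adjusted p = 0.0382). That count ran from 0 of 8 without V replicate 1, V replicate 2, DOX replicate 1 or DOX replicate 2 to 8 of 8 without H replicate 1. The summed level of the 8 was 38.5, 25.1 and 79.5 CPM in V and 268, 274 and 149 CPM in DOX. At 72 h the 3 markers measured (S100a8, S100a9 and Retnlg) all rose, from a summed 0.957 to 1.98 CPM in V to 26.4 to 133 CPM in DOX. At such V levels a gene could be kept for testing through the DOX libraries alone. That these 3 all rose was therefore nearly fixed in advance and is no separate support. Elane, Mpo, Ngp, Camp, Ltf, Ly6g and Stfa2l1 had no row and were not analysed here. The part of neutrophils in the rise of the recruited-type genes was not tested. With Itgam, Cd14, C5ar1 and Ccl6 left out, Ccl9 alone remained, and whether neutrophils also express it was not tested.

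Other monocyte genes followed at 72 h. Of 7 measured at 72 h, 5 rose, against 26.5% of all genes called higher. Which cells carried these rises was not tested. Cd44, a hyaluronan receptor gene, rose at 16 h (log2 fold change 1.46) and at 72 h (1.43). Chil3, which encodes the secreted chitinase-like protein Ym1, held 0 to 2 counts per library in V and 6.24, 10.4 and 14.9 CPM in the DOX libraries at 72 h, in order of level. With so few counts in V, Chil3 was kept for testing through the DOX libraries, so its call is no separate support. Thbs1, thrombospondin 1, rose 11.8-fold (3.57 ± 0.39; edgeR adjusted p = 0.000738), Vcan, the matrix proteoglycan versican, rose 3.18-fold (1.67 ± 0.13; edgeR adjusted p = 3.01e-05) and S100a6, a calcium-binding protein gene, rose 2.83-fold (1.499 ± 0.15; edgeR adjusted p = 8.9e-05). The rise of Cd44 at 16 h (edgeR adjusted p = 0.0181) did not pass without V replicate 1 (adjusted p = 0.0567), V replicate 3 (0.0541) or DOX replicate 1 (0.061).

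Among chemokines that draw monocytes, Ccl2 and Ccl7 had rows at 72 h alone. Ccl2, the main ligand of CCR2, read 0.742 to 1.40 CPM in V and 5.42, 7.57 and 20.9 CPM in the DOX libraries, a 10.6-fold rise (3.41 ± 0.59; edgeR adjusted p = 0.00153). Ccl7, another CCR2 ligand, read 0.525 to 1.15 CPM in V and 1.64, 2.69 and 14.7 CPM in DOX (2.84 ± 0.95; edgeR adjusted p = 0.0303), and the library without a number was the highest for both. The V level of Ccl7 was near the floor, so its row may rest on the DOX libraries. At 16 h, of 5 chemokine genes measured 0 rose, and Cxcl12 fell from 148 to 187 CPM in V to 110 to 123 CPM in DOX (-0.54 ± 0.19; edgeR adjusted p = 0.0457). Icam1, an endothelial ligand of leukocyte integrins, rose at both times (0.71 and 1.12). Of the adhesion genes 1 of 7 was called at 16 h and 3 of 5 at 72 h, against 32.3% and 53.7% of all genes.

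The resident-type transcripts rose less by the median, but the ranges of both classes overlapped at 16 h. At 16 h, 4 of 10 rose and 0 fell (median log2 fold change 0.60, range -0.18 to 2.29), and at 72 h, 5 of 9 rose and 0 fell (median 0.79, range 0.00 to 1.67). Of all genes, 15.6% rose at 16 h and 26.5% at 72 h. The recruited-type medians were 1.37 over 5 genes (range 0.57 to 1.89) and 2.40 over 3 (range 1.98 to 2.76). Over the genes measured at both times the medians at 16 h were 0.64 for 9 resident-type and 1.83 for 3 recruited-type genes. Summed over the class, resident-type transcripts read 207 to 244 CPM in V and 283 to 355 CPM in DOX at 16 h. Recruited-type transcripts read 43.2 to 50.6 CPM and 107 to 202 CPM. At 72 h the resident-type sum was 158 to 207 CPM in V and 278 to 333 CPM in DOX, beside 20.8 to 28.1 CPM and 83.6 to 186 CPM for the recruited type. The medians describe the genes listed and carry no test.

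Siglec1 (chr2:131069220-131086765), the sialic acid-binding receptor sialoadhesin, had the largest rise of the resident-type genes at both times. It read 1.83, 2.90 and 2.51 CPM in V at 16 h and 10.8, 11.0 and 14.0 CPM in DOX, so the DOX libraries lay close together and far above V. The 4.90-fold rise (2.29 ± 0.28; edgeR adjusted p = 0.00211) was the largest among the 29 genes at 16 h. At 72 h it read 2.45, 2.43 and 2.40 CPM in V and 10.4, 4.5 and 8.34 CPM in DOX, a 3.19-fold rise (1.67 ± 0.42; edgeR adjusted p = 0.00849). The DOX libraries were spread more widely at that time, and without DOX replicate 1 the rise was 1.40 (edgeR adjusted p = 0.0658).

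F13a1 (chr13:36867178-37050244), the catalytic A subunit of coagulation factor XIII, was listed here with the resident-type genes, and which cells carried it was not tested. It read 38.7, 46.5 and 41.2 CPM in V at 16 h and 76.0, 65.7 and 76.9 CPM in DOX. Its rise was 1.73-fold (0.79 ± 0.10; edgeR adjusted p = 0.00211). By 72 h it read 38.4, 47.4 and 46.1 CPM in V and 107, 78.5 and 109 CPM in DOX, a 2.24-fold rise (1.16 ± 0.14; edgeR adjusted p = 0.000235). The lowest DOX library was well above the highest V library at both times.

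Mrc1 (chr2:14229392-14332057), the mannose receptor, read 26.9, 31.4 and 25.9 CPM in V at 16 h and 51.1, 44.0 and 59.5 CPM in DOX, a 1.84-fold rise (0.88 ± 0.12; edgeR adjusted p = 0.00244). In the 72 h libraries it read 21.4, 23.4 and 34.2 CPM in V and 45.2, 30.4 and 43.9 CPM in DOX. There the groups overlapped, V replicate 3 standing above DOX replicate 2, and the difference missed the threshold (0.60 ± 0.22; edgeR adjusted p = 0.0522). It passed without V replicate 3 (adjusted p = 0.00866), without DOX replicate 2 (0.0135) and with DESeq2 (0.00841). A direct test of 72 h against 16 h did not pass either (-0.30 ± 0.28; edgeR adjusted p = 0.44).

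Lyve1 (chr7:110850607-110863239), a hyaluronan receptor of resident macrophages that lymphatic endothelium also expresses, read 26.7, 31.3 and 25.3 CPM in V at 16 h and 47.5, 35.1 and 46.9 CPM in DOX. No library overlapped, but the difference missed the threshold (0.64 ± 0.28; edgeR adjusted p = 0.0965). It passed without H replicate 1 (adjusted p = 0.0121) and with V and DOX alone in the fit (0.0052). At 72 h it read 17.7, 21.4 and 22.03 CPM in V and 56.1, 54.2 and 41.5 CPM in DOX, a 2.49-fold rise (1.31 ± 0.13; edgeR adjusted p = 9.33e-05). Among lymphatic endothelial genes, 0 of 6 were called at 16 h. At 72 h 2 of 4 rose, the receptor gene Flt4 (0.34) and Mmrn1 (0.67), and 2 fell, the defining factor Prox1 (-0.53) and the chemokine gene Ccl21a (-0.98).

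Cd163, the scavenger receptor for haptoglobin-bound haemoglobin, read 28.1, 26.7 and 24.3 CPM in V at 16 h and 48.1, 27.5 and 23.2 CPM in DOX. One DOX library was high and the others were within or beside the V range (0.32 ± 0.23; edgeR adjusted p = 0.3). At 72 h it read 21.4 to 22.1 CPM in V and 45.2, 26.9 and 40.5 CPM in DOX, a 1.73-fold rise (0.79 ± 0.17; edgeR adjusted p = 0.00552) without overlap.

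Maf, which encodes the transcription factor c-Maf of macrophages, read 12.1, 16.6 and 12.98 CPM in V at 16 h and 17.7, 22.4 and 21.4 CPM in DOX, without overlap (0.56 ± 0.18; edgeR adjusted p = 0.0365). The adjusted p was 0.129 without V replicate 1, 0.109 without V replicate 3, 0.104 without DOX replicate 2 and 0.0876 without DOX replicate 3. At 72 h the groups overlapped and the difference was 0.28 ± 0.18 (edgeR adjusted p = 0.223), passing without V replicate 3 (0.0129). Pf4, platelet factor 4, a chemokine gene also expressed by megakaryocytes, rose at 72 h (0.91 ± 0.29; edgeR adjusted p = 0.0283), but not without V replicate 1 (adjusted p = 0.0629), V replicate 2 (0.0653), DOX replicate 2 (0.069) or the DOX library without a number (0.0743).

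Cbr2, Folr2 and Stab1 passed the test at neither time. Folr2, folate receptor beta, had a row at 16 h alone, at 6.75 to 8.61 CPM in V and 6.84 to 7.23 CPM in DOX, the V range enclosing DOX (-0.08 ± 0.18; edgeR adjusted p = 0.756). Stab1, the scavenger receptor stabilin 1, read 52.8 to 59.5 CPM in V and 36.6 to 59.8 CPM in DOX at 16 h, and its difference at 72 h was 0.00 ± 0.11 (edgeR adjusted p = 0.989). Cbr2, a carbonyl reductase gene, read 7.75 to 11.5 CPM in V at 16 h and 7.93, 12.1 and 35.2 CPM in DOX, so 1 library set the group's mean.

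Atrial transcripts stood apart in some of these libraries, a check added after the values were seen. Myl4, the atrial light chain, read 1.64 to 19.1 CPM in V at 16 h and 273, 9.64 and 195 CPM in DOX. DOX replicate 2, whose Myl4 level was within the V range, was the lowest DOX library for F13a1, Mrc1, Ccl6, Ccl9 and Itgam and in 16 of the 29 genes; it read above all V libraries for those 5 and for Siglec1. At 72 h Myl4 was highest in V replicate 2 (104 CPM) and DOX replicate 2 (50.4 CPM), and its part in the changes was not tested.

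**Figure D3:**
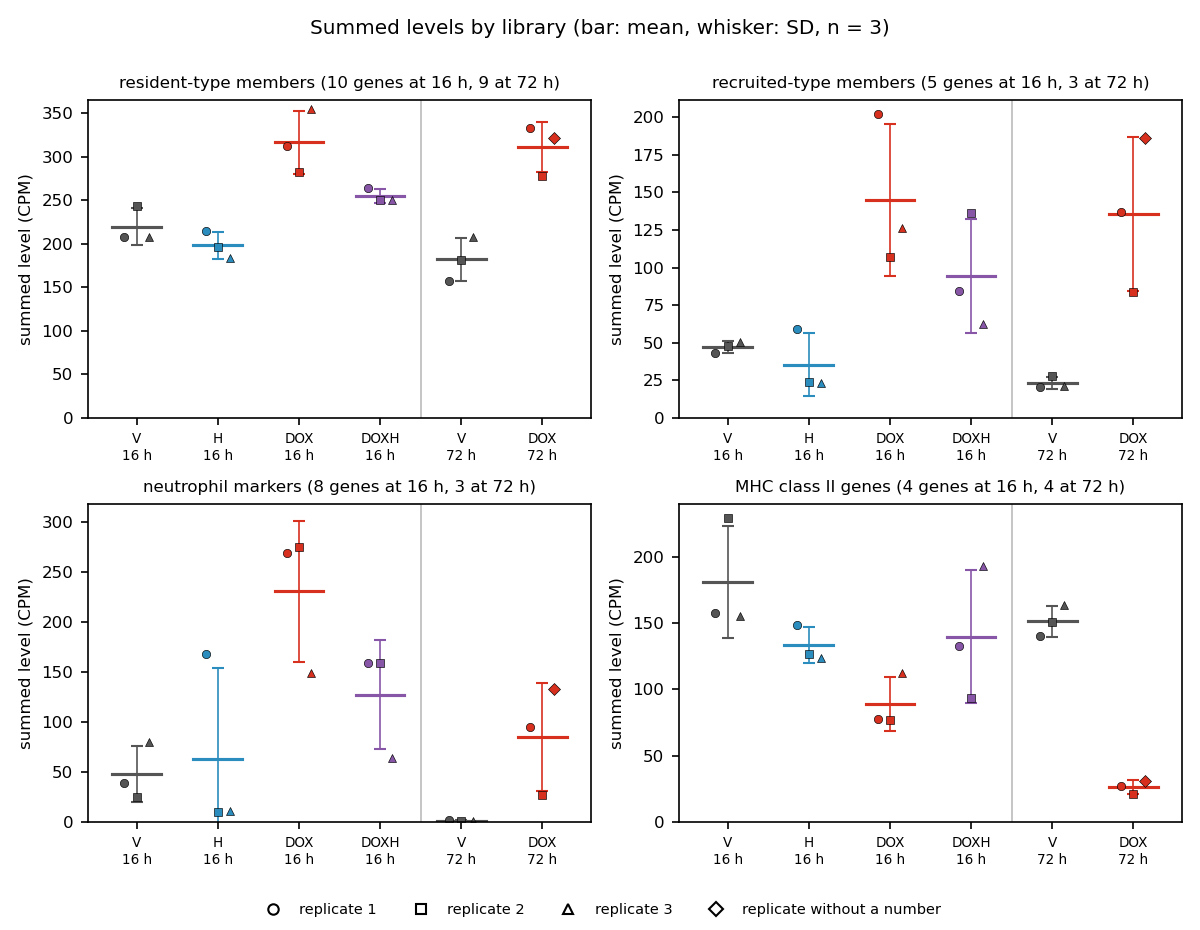
Summed level per library (CPM, axes starting at 0) of the resident-type and recruited-type genes, the neutrophil markers and the MHC class II genes by group and time; points are libraries, bars and whiskers the mean and SD of 3. Both classes of macrophage genes and the neutrophil markers are higher in every DOX library than in every V library of the same time, MHC class II genes are lower, and the DOXH libraries are spread.

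The genes shared by macrophages went in both directions. Csf1r, the receptor for colony-stimulating factor 1 and interleukin 34, fell at both times. It read 33.8, 40.7 and 33.3 CPM in V at 16 h and 21.6, 22.9 and 26.2 CPM in DOX, every DOX library below every V library (-0.61 ± 0.19; edgeR adjusted p = 0.0283). The adjusted p was 0.0568, 0.0969 and 0.0521 without V replicates 1, 2 and 3, and 0.0882 and 0.0752 without DOX replicates 1 and 2. By 72 h it read 25.7, 26.4 and 27.6 CPM in V and 21.9, 19.9 and 18.5 CPM in DOX, again without overlap (-0.40 ± 0.09; edgeR adjusted p = 0.00448), and passed without each library in turn. Its ligand gene Csf1 read 23.3 to 29.3 CPM in V and 33.0 to 37.3 CPM in DOX at 16 h (0.46 ± 0.18; edgeR adjusted p = 0.0743). Hmgxb3 overlaps Csf1r on the other strand, and the strand setting of the counting is not stated.

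Adgre1, the gene of the mouse macrophage antigen F4/80, had a row at 16 h alone. It read 6.85, 10.2 and 8.58 CPM in V and 6.199, 10.6 and 10.2 CPM in DOX, with full overlap (0.08 ± 0.28; edgeR adjusted p = 0.848). Cd68, the lysosomal glycoprotein macrosialin, read 4.53 to 4.99 CPM in V and 5.70 to 6.98 CPM in DOX at 16 h (0.35 ± 0.16; edgeR adjusted p = 0.0992). By 72 h it read 3.99, 6.34 and 8.78 CPM in the DOX libraries, in order of level, against 3.595 to 4.34 CPM in V (0.71 ± 0.40; edgeR adjusted p = 0.161), and it passed without DOX replicate 2 (adjusted p = 0.0221).

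The Fc receptor genes for immunoglobulin G rose at 72 h. Fcgr2b, the inhibitory receptor, read 10.9, 12.8 and 10.8 CPM in V at 16 h and 26.1, 14.4 and 17.1 CPM in DOX, without overlap (0.74 ± 0.23; edgeR adjusted p = 0.0286). The adjusted p was 0.0879 without V replicate 1 and without V replicate 3, and without DOX replicate 1 the change was 0.45 (adjusted p = 0.116). In the 72 h libraries it read 7.29, 9.51 and 8.05 CPM in V and 19.9, 14.4 and 22.2 CPM in DOX, a 2.27-fold rise (1.19 ± 0.17; edgeR adjusted p = 0.000606). Fcgr3, an activating receptor, read 8.93 to 13.2 CPM in V and 16.6 to 23.2 CPM in DOX at 72 h, a 1.85-fold rise (0.89 ± 0.17; edgeR adjusted p = 0.00257), beside 0.49 ± 0.21 at 16 h (edgeR adjusted p = 0.0916). Fcgr3 shares 12.8% of its 50-base words with Fcgr2b, so their reads may not be fully separate.

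Mpeg1, which encodes the pore-forming protein perforin-2, read 8.49 to 9.51 CPM in V at 72 h and 15.6, 13.1 and 17.3 CPM in DOX, a 1.68-fold rise (0.74 ± 0.13; edgeR adjusted p = 0.00135). At 16 h its difference was 0.29 ± 0.17 (edgeR adjusted p = 0.21). Ctsc, the lysosomal protease cathepsin C that activates serine proteases of myeloid granules, went the other way at 72 h. It read 33.3, 30.6 and 32.7 CPM in V and 19.8, 17.7 and 27.1 CPM in DOX, without overlap (-0.58 ± 0.15; edgeR adjusted p = 0.00959). At 16 h it read 34.8, 35.4 and 31.8 CPM in V and 29.1, 36.9 and 35.2 CPM in DOX, so the groups overlapped (-0.01 ± 0.15; edgeR adjusted p = 0.959).

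Among the genes shared by leukocytes, 2 of 7 rose at 16 h and 4 of 5 at 72 h, against 15.6% and 26.5% of all genes. Fcer1g, the common gamma chain of activating Fc receptors, read 4.53, 5.53 and 5.97 CPM in V at 16 h and 9.94, 8.24 and 9.28 CPM in DOX (0.78 ± 0.22; edgeR adjusted p = 0.0206). Without V replicate 1, V replicate 2, DOX replicate 1 or DOX replicate 3 its adjusted p was 0.08, 0.0506, 0.0633 and 0.0518. At 72 h it read 4.49 to 5.94 CPM in V and 7.72 to 11.2 CPM in DOX (0.90 ± 0.24; edgeR adjusted p = 0.0107). Laptm5, a lysosomal membrane protein gene of blood cells, read 14.2, 18.4 and 18.8 CPM in V at 16 h and 26.4, 25.3 and 33.2 CPM in DOX (0.73 ± 0.19; edgeR adjusted p = 0.0142). Its adjusted p was 0.0611 without V replicate 1 and 0.0537 without DOX replicate 3. At 72 h its rise was 0.67 ± 0.17 (edgeR adjusted p = 0.00952).

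Lyz2 read 91.8, 116 and 124 CPM in V at 72 h and 155, 151 and 168 CPM in DOX, a 1.43-fold rise (0.51 ± 0.12; edgeR adjusted p = 0.00501), and overlapped at 16 h (0.15 ± 0.17; edgeR adjusted p = 0.509). Of its 50-base words 15.4% also occur in Lyz1, which was not among the rows analysed here. Tyrobp, the adaptor DAP12 of myeloid receptors, read 4.26, 8.04 and 7.59 CPM in V at 72 h and 12.1, 9.36 and 13.5 CPM in DOX (0.82 ± 0.25; edgeR adjusted p = 0.0225). Its adjusted p was 0.0509 without V replicate 1, 0.0718 without DOX replicate 1 and 0.0713 without the DOX library without a number. Ptprc, the leukocyte antigen CD45, differed by 0.53 ± 0.19 at 16 h (edgeR adjusted p = 0.0503) and by -0.02 ± 0.25 at 72 h (edgeR adjusted p = 0.955). At 16 h it passed with DESeq2 (adjusted p = 0.0469), with V and DOX alone (0.00843), and without H replicate 1 or 2 or any 1 DOXH library (0.0287 to 0.049). Itgb2 (0.57 ± 0.26; edgeR adjusted p = 0.107), the beta subunit that pairs with CD11b, and Spi1 (0.25 ± 0.28; edgeR adjusted p = 0.499) did not pass at 16 h; Itgb2 did with V and DOX alone (adjusted p = 0.0494).

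The times were compared directly for the 23 genes with rows at both, in a fit of the 12 V and DOX libraries. In all, 8 rose at both times (F13a1, Siglec1, Itgam, Ccl6, Ccl9, Fcgr2b, Fcer1g and Laptm5), 1 fell at both (Csf1r), and 4 were called at neither by edgeR (Cbr2, Stab1, Cd68 and Ptprc). DESeq2 called Cd68 at 72 h and Ptprc at 16 h. The change itself differed between the times for 2 genes, against 35.6% of 7407 genes. Lyve1 rose more at 72 h, by 0.66 ± 0.21 (edgeR adjusted p = 0.0275), and Ctsc fell at 72 h, the difference being -0.59 ± 0.20 (edgeR adjusted p = 0.0337). With all 18 libraries in the fit, an alternative chosen after seeing the data, neither passed (adjusted p = 0.171 for Lyve1 and 0.0772 for Ctsc). The Lyve1 difference was not past the threshold without V replicate 2 or DOX replicate 2 of 16 h, or without V replicate 1, DOX replicate 1 or DOX replicate 2 of 72 h (adjusted p up to 0.0697). The Ctsc difference was past it without DOX replicate 1 of 16 h, V replicate 2 of 72 h or the DOX library without a number, and not without any other single library (up to 0.0818). For Ccl6, Ccl9, Itgam and Siglec1 the differences were 0.91 ± 0.47, 0.50 ± 0.47, 0.60 ± 0.52 and -0.64 ± 0.44, with edgeR adjusted p from 0.158 to 0.443.

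**Figure D4:**
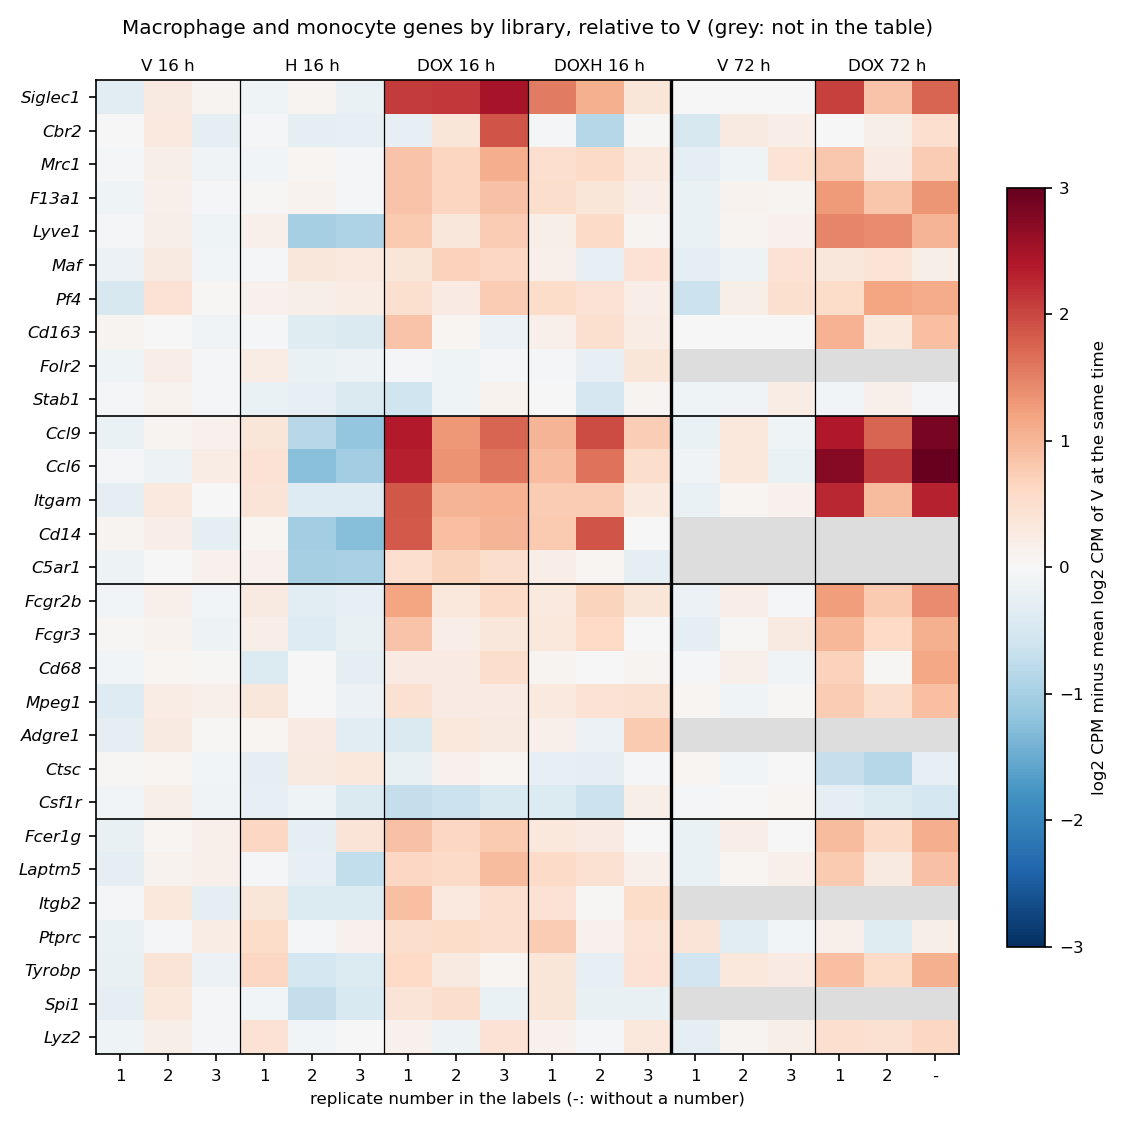
Level of each gene in each library as log2 CPM minus the mean log2 CPM of V at the same time (red higher, blue lower, grey without a row); horizontal lines part the resident-type, recruited-type, macrophage and leukocyte classes, and vertical lines part the groups. DOX columns are mostly red, H replicate 1 differs from the other H columns in the recruited-type rows, and the DOXH columns lie nearer to V than the DOX columns for Siglec1 and F13a1.

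Hesperitin alone, compared with vehicle, addresses whether the compound moved these transcripts without doxorubicin. With edgeR 0 of 29 genes were called, as were 0 of 10393 genes (0%). Of the 29, 0 had an unadjusted edgeR p under 0.05, against 664 of the 10393 genes. DESeq2 called 0 of the 29, beside 0.125% of all genes. The median difference of the 29 was -0.11 on the log2 scale, and 21 were lower, 2 of them without overlap (7.53% of all genes were). The H libraries were not alike. H replicate 1 was the highest of its group in 20 of the 29 genes, against 34.0% of all genes. V replicate 2 was likewise the highest V library at 16 h in 22 of the 29, against 32.6% of all genes. Ccl6 read 25.7 CPM in H replicate 1 and 7.81 and 9.10 CPM in H replicates 2 and 3, and Lyve1 read 30.8 against 13.7 and 14.5 CPM. Neutrophil markers summed to 168 CPM in H replicate 1 and to 10.2 and 10.5 CPM in H replicates 2 and 3. Without H replicate 1, C5ar1 and Lyve1 were lower in H than in V, beside 0.452% of all genes.

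DOXH was compared with DOX to see whether hesperitin altered the response. With edgeR 0 of 29 genes were called, as were 0% of all genes. DESeq2 called 1, F13a1, lower, beside 3.75% of all genes. An unadjusted edgeR p under 0.05 was seen in 7 of the 29, and the share of all genes at that cut is not given here. Of the 29, 24 were lower in DOXH than in DOX, their median log2 difference being -0.27 against -0.01 for all genes, and 7 were lower without overlap (8.72% of all genes were). Siglec1 read 7.37, 5.14 and 3.11 CPM in DOXH, between the V range of 1.83 to 2.90 CPM and the DOX range of 10.8 to 14.0 CPM (-1.19 ± 0.25 against DOX; edgeR adjusted p = 0.13). F13a1 read 60.3, 54.0 and 48.3 CPM, also between V and DOX without overlap of either (-0.43 ± 0.10; edgeR adjusted p = 0.13). Mrc1 read 40.0, 42.0 and 34.4 CPM and lay between them in the same way (-0.41 ± 0.12; edgeR adjusted p = 0.149). DOXH replicate 3 was the lowest DOXH library for Siglec1, F13a1 and Mrc1. Summed cardiomyocyte markers read 43870.5, 41071 and 61144 CPM in DOXH replicates 1, 2 and 3. The last lay within the V range of 58455 to 65876 CPM, above the DOX range of 33760 to 36389 CPM. The part of that library in the DOXH levels was not tested.

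Ccl6 read 36.2, 58.4 and 27.2 CPM in DOXH, so that DOXH replicate 2 overlapped DOX (48.6 to 96.5 CPM) and replicate 3 came closest to V (-0.74 ± 0.42; edgeR adjusted p = 0.364). Ccl9 read 21.4, 41.0 and 17.6 CPM, with the same order of libraries (-0.54 ± 0.40; edgeR adjusted p = 0.484). Itgam read 10.3, 10.3 and 7.47 CPM (-0.75 ± 0.28; edgeR adjusted p = 0.194). Csf1r read 26.7, 22.7 and 40.7 CPM, replicate 3 reaching the top of the V range (0.35 ± 0.19; edgeR adjusted p = 0.334). Without DOXH replicate 2, Siglec1 (adjusted p = 0.0232), F13a1 and Mrc1 were lower in DOXH than in DOX, and 15% of all genes were then called.

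Against V, 0 of 29 genes were called in DOXH by edgeR (0% of all genes), and DESeq2 called 1, Siglec1, beside 1.26% of all genes. With edgeR 7 had an unadjusted p under 0.05. Of the 29, 10 were higher than V without overlap (9.4% of all genes were) and 0 lower (9.84%), Ccl9 by 1.35 ± 0.44, Siglec1 by 1.11 ± 0.29 and Ccl6 by 1.09 ± 0.44. Without DOXH replicate 3, Siglec1, F13a1 and Mrc1 were higher and Csf1r lower than in V, beside 16.1% of all genes. Against H, 0 of 29 were called by edgeR (0.154% of all genes, 0.115% higher and 0.0385% lower), 11 had an unadjusted p under 0.05, and DESeq2 called 6, Ccl6, Ccl9, Cd14, Laptm5, Mrc1 and Siglec1, all higher in DOXH, beside 6.91% of all genes. Without H replicate 1 edgeR called 5 (1.85% of all genes) and without DOXH replicate 3 it called 7 (22.1% of all genes), again all higher. The interaction of doxorubicin with hesperitin gave 0 of 29 with edgeR (0% of all genes) and 0 with DESeq2 (0.51% of all genes). With edgeR 6 were at an unadjusted p under 0.05. For these unadjusted counts of 7, 11 and 6 the shares of all genes are not given here. These comparisons share libraries and are not independent of each other.

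MHC class II genes, which macrophages, dendritic cells and B cells use to present antigen, fell at both times. At 16 h 4 of 4 fell with doxorubicin (median -1.07), and at 72 h 4 of 4 (median -2.56), against 16.6% and 27.2% of all genes. H2-Aa read 32.9, 49.9 and 29.1 CPM in V at 16 h and 14.9, 14.6 and 20.6 CPM in DOX (-1.16 ± 0.29; edgeR adjusted p = 0.0135). At 72 h it read 32.0, 34.4 and 38.5 CPM in V and 5.93, 4.45 and 6.24 CPM in DOX (-2.65 ± 0.13; edgeR adjusted p = 1.48e-05). Cd74, the invariant chain, fell by 0.88 and by 2.44 on the log2 scale. At 16 h the count was 1 of 4 without V replicate 2 and 2 of 4 without DOX replicate 1 or DOX replicate 2, and at 72 h it was 4 of 4 whichever library was left out. The change differed between the times for 4 of 4, against 35.6% of 7407 genes (18.8% lower), the difference having a median of -1.54.

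Genes for the uptake of dead cells and for scavenging rose in part. Of 14, 5 rose and 1 fell at 16 h, and 10 rose at 72 h. Of all genes, 15.6% rose and 16.6% fell at 16 h, and 26.5% rose at 72 h. Msr1, the class A scavenger receptor, read 1.83, 3.17 and 2.62 CPM in V at 16 h and 6.38, 6.49 and 7.89 CPM in DOX (1.44 ± 0.27; edgeR adjusted p = 0.00426), and rose by 1.88 ± 0.36 at 72 h (edgeR adjusted p = 0.00199). The ligand genes Gas6 and Pros1, which bridge dead cells to the receptors MERTK and AXL, rose at 16 h (0.91 and 0.71) and at 72 h (0.37 and 0.81), and the receptor genes Mertk (0.39 and 0.45, both times) and Axl (0.75, at 72 h) rose as well. C1qa, C1qb and C1qc, the complement C1q chains made by macrophages, rose at 72 h by 0.67, 0.82 and 0.52; they were named after their values were seen, as was Csf1 above. Many of these genes are also expressed by other cells of the heart.

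Of 17 lysosome and lipid handling genes 4 rose at 16 h, and of 16 at 72 h 8 rose and 2 fell. Of all genes, 15.6% were called higher and 16.6% lower at 16 h, and 26.5% and 27.2% at 72 h. The same shares stand beside the counts of transcription factor genes below. Ctsl, cathepsin L, rose by 0.64 and 1.03, and Plin2, a coat protein of lipid droplets that cardiomyocytes express as well, by 0.50 and 2.30. The count at 16 h was 2 of 17 without V replicate 1, V replicate 3, DOX replicate 1 or DOX replicate 3. Of 12 myeloid transcription factor genes 4 rose at 16 h, Nr4a1 (1.82), Klf4 (1.03), Klf2 (0.87) and Irf8 (0.88), and Bhlhe41 fell (-0.79). At 72 h 3 of 9 rose, Nr1h3 (1.22), Klf4 (1.04) and Id3 (0.81), and Bhlhe41 fell again (-1.33). The count at 16 h was 2 higher and 0 lower without V replicate 1, and 3 higher and 0 lower without V replicate 2, V replicate 3, DOX replicate 1 or DOX replicate 3. Among 3 inflammatory mediators measured at 16 h, Il1b rose (2.38 ± 0.63; edgeR adjusted p = 0.0165) and Nos2 fell (-1.13 ± 0.32; edgeR adjusted p = 0.022).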

How the data were processed

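The authors deposited 2 tables of expected counts per gene, 1 for each time, and these estimates were rounded to whole numbers here. The submitters' processing notes name RSEM, DESeq2 and GRCm38 (mm10), without versions; the aligner, the strand setting and any filter on low genes before deposit are not stated. There are 10393 genes at 16 h, all tested, and 7723 at 72 h, of which 7703 passed edgeR's filterByExpr. Over the libraries used, the lowest row mean was 33.8 counts at 16 h and 1.33 at 72 h. Yet Adgre1 and Folr2, at a mean of 8.53 and 7.49 CPM in V at 16 h, had no row at 72 h. Which rule kept the rows is not known, so each share of all genes holds for the rows of its own time. The 6 columns of the 72 h table that no label matched were not used, so hesperitin at 72 h was not analysed here, and 1 DOX column with a number that no label has was kept as a library without a number.

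Counts were scaled with TMM factors and tested with edgeR 4.0.16 (robust quasi-likelihood fit, limma 3.58.1, R 4.3.3), all groups of a time in 1 fit, p-values being adjusted by Benjamini-Hochberg across every gene in the fit, with 0.05 as threshold. The SE of a log2 fold change is its size divided by the square root of F. The times were compared in a fit of V and DOX over the 7407 genes in both tables. Alternatives were DESeq2 1.42.0, RLE factors, no filter, a mean of at least 5 CPM, the replicate number as a block, only the groups compared, and leaving out each library. The method was tested on simulated counts. No pair of libraries agreed within sampling noise. Replicate numbers were not shown to pair samples.

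By the rule for named genes, every member was accounted for. Values in every library were given for up to 6 members of each class, by smallest p among those called for DOX against V, for members called in a comparison with hesperitin or between the times, and for Csf1r and Adgre1. Up to 4 called genes of each other list were named for each time, by smallest p. Csf1, C1qa, C1qb and C1qc fall outside it. The members and lists were chosen with earlier results of these data known. Other cell types were represented by marker lists, of which those for T and NK cells and for mast cells had 0 genes measured. The count of other monocyte genes at 16 h is not reported here. Figures were drawn with matplotlib 3.10.9 in Python 3.11.15. Depth sets the precision: Siglec1, the lowest gene, had 19 expected counts in V replicate 1 at 16 h, and the SE covers counting and replicate spread.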

Additional observations from a re-analysis of the deposited data

Results flagged for a closer look

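The response to doxorubicin differed between 72 h and 16 h for 2 of the 23 genes measured at both times, in a direct test of the difference with edgeR. For Lyve1 the log2 change was 0.66 larger at 72 h (adjusted p = 0.0275), all DOX libraries standing above all V libraries at both times. For Ctsc the difference was -0.59 (adjusted p = 0.0337), with lower levels in all DOX than in all V libraries at 72 h and overlapping groups at 16 h. Neither passed when all 18 libraries entered the fit.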

How the results depend on the processing

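The count of 11 genes called for DOX against V at 16 h ranged from 6 to 15 when each library was left out in turn. Of all genes 18.6% were called in the fit with 6 and 33.6% in that with 15. The count of 17 at 72 h ranged from 15 (44.1% of all genes without V replicate 1) to 19 (45.2% without V replicate 3). With V and DOX alone in the fit it was 17 at 16 h, beside 44% of all genes. The counts of 0 with hesperitin ranged from 0 to 2 (H against V), 0 to 3 (DOXH against DOX), 0 to 4 (DOXH against V), 0 to 7 (DOXH against H) and 0 to 0 (interaction). With DESeq2 they were 1, 1 and 6 for DOXH against DOX, V and H, beside 3.75%, 1.26% and 6.91% of all genes. The 2 differences between the times ranged from 0 to 5, and were 0 with all 18 libraries in the fit, an alternative chosen after seeing the data, beside 26.5% of all genes. The recruited-type median at 16 h was 1.83 over the genes in both tables. With Itgam, Cd14, C5ar1 and Ccl6 left out as genes that neutrophils also express, Ccl9 alone remained, at 1.89. Whether neutrophils express Ccl9 too was not tested. With the replicate block, 12 genes were called at 16 h (29.5% of all genes). At 72 h, without the library that has no number, 15 were called (49.8%), and 2 between the times (32.4%). The hesperitin comparisons stayed at 0. Same-numbered V and DOX libraries correlated at -0.106, -0.178 and -0.111 at 16 h and at 0.197 and 0.245 at 72 h, so the numbers were not shown to pair samples. At 72 h the fit with the block, which also lacks the library without a number, did not call Ccl9 (adjusted p = 0.0521), Siglec1 (0.0564), Tyrobp (0.0678) and Fcer1g (0.0932) and did call Mrc1 (0.0169) and Maf (0.0033); without that library and with no block, Tyrobp was already lost (0.0713) and the other 3 were called. At 16 h it added Cd14 (0.0385). Other calls at 16 h gained were Fcgr3 with V and DOX alone (0.0489), Pf4 without V replicate 2 (0.0347) and Cbr2 without DOX replicate 1 (0.0381).

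Some differences that were not called changed sign when a library was left out. At 16 h the log2 ranges were -0.058 to 0.29 for Adgre1, -0.080 to 0.085 for Ctsc, -0.15 to 0.032 for Folr2, -0.054 to 0.52 for Cd163 and -0.0085 to 0.29 for Lyz2. At 72 h they were -0.077 to 0.12 for Stab1 and -0.17 to 0.20 for Ptprc. RLE factors and both settings of the filter changed no call of a listed gene. At 16 h and between the times every gene passed the filter, so the setting without it repeats the main fit. Its agreement there was fixed in advance and is no separate support. The cause of these shifts was not tested. Depth limits Siglec1 most, with 19 expected counts in its lowest library.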

Other observations

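Genes of other cells in the heart were followed as context for the macrophage transcripts. Among 10 blood endothelial genes at 16 h, Cldn5, a tight junction gene, rose with doxorubicin (log2 fold change 2.99), and Kdr and Tie1 fell. At 72 h 6 of 10 rose and 1 fell, against 26.5% and 27.2% of all genes. Among fibroblast genes 0 of 9 were called at 16 h with edgeR, against 32.3% of all genes. Of the 9, 1 had an unadjusted edgeR p under 0.05, against 4716 of all 10393 genes. At 72 h Dcn (1.12) and Pdgfra (0.68) rose and Col3a1 fell (-0.68), of 8 measured.

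Of 4 other resident macrophage genes measured at 72 h 2 rose, Gas6 and the endothelin receptor gene Ednrb (1.43), against 26.5% of all genes. At 16 h 1 of 6 rose, against 15.6% of all genes, and 3 of the 6 differences were negative. The receptor gene Tgfbr2 rose at both times (0.70 and 0.80). For MHC class II genes the median log2 difference of DOXH from DOX was 0.69. With edgeR 4 of 4 had an unadjusted p under 0.05, a cut for which the share of all genes is not given here. The adjusted threshold was passed by 0, as by 0% of all genes.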
